A study of Mus musculus with 8 samples.

Results

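The natriuretic peptide and cGMP signalling genes described here are 10 genes, chosen by name with earlier results of these data known: the peptide genes Nppa and Nppb, the receptor genes Npr1, Npr2 and Npr3, the protease gene Corin, the nitric oxide synthase gene Nos3, the kinase gene Prkg1, and the phosphodiesterase genes Pde5a and Pde2a. Each was read by 1 probe set that the array's annotation assigns to that symbol, and all 10 were found among the 19933 genes measured. Left ventricular RNA of 8 C57/Bl6 mice was hybridised to Affymetrix gene arrays, 1 array per heart, in 3 groups: 2 PlGF mice, 3 mice labelled PlGF/RGS4 and 3 controls. PlGF mice express placental growth factor from a transgene. PlGF/RGS4 mice carry in addition a transgene for RGS4, a protein that shortens G protein signalling. Both transgenes respond to the transactivator tTA, driven by the αMHC promoter, which is active in cardiomyocytes, and doxycycline in the diet keeps them silent. All mice were 11 weeks old. Doxycycline was withdrawn at 5 weeks of age, which gave 6 weeks of expression, and controls were littermates with a single transgene, so that they had either the driver or the responder but not the pair. The study set angiogenesis with hypertrophy (PlGF) beside angiogenesis in which hypertrophy was held back (PlGF/RGS4), with nitric oxide from the endothelium as the signal between vessel and muscle. The labels call the arrays biological replicates.

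Natriuretic peptides are hormones of the heart muscle. ANP (from Nppa) and BNP (from Nppb) act through the receptor NPR-A (from Npr1), which makes cGMP inside the target cell, while nitric oxide from endothelial nitric oxide synthase (from Nos3) raises cGMP through a soluble cyclase, and cGMP in turn activates the kinase PKG-I (from Prkg1) until phosphodiesterases break it down. Nppa is strongly expressed in the ventricle before birth and in the adult atria, is low in the healthy adult ventricle, and together with Nppb is a classical marker of ventricular load and hypertrophy.

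Among these genes, Corin fell 2.03-fold and Prkg1 rose 1.45-fold in PlGF ventricles against control ventricles, a comparison in which 2.53% of all genes passed the test (limma, Benjamini-Hochberg adjusted p under 0.05). Neither peptide gene passed the test in any comparison. Nppa and Nppb were among the genes with the widest spread within groups, and that spread was widest between the 2 PlGF hearts. Npr1, Npr2, Npr3, Nos3, Pde5a and Pde2a did not pass in any comparison either.

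The peptide genes lie next to each other on chromosome 4, on the same strand, and the short stretches around their start sites carry the letters of known promoter elements. They are shown because both genes are usually read as 1 program. In the promoters that RefSeq gives for assembly GRCm38.p6 (250 bases before to 50 after each start site, 1 for each peptide gene), the TATA box TATAAA begins at position -31 of Nppb and at position -9 of Nppa, counted from the annotated start. In the windows below, capitals mark the searched motif. The Nppb TATA window is chr4:147985859-147985884 and the Nppa TATA window is chr4:148000703-148000728, both on the plus strand.
Nppb TATA window: tcagccccagTATAAAaggcagaggc
Nppa TATA window: gctggggggcTATAAAaacgggagat

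GATA factors bind AGATAA or TGATAA, and TEAD factors bind CATTCC. Both genes hold TGATAA, at position -122 of Nppa (chr4:148000590-148000615) and at position -95 of Nppb (chr4:147985795-147985820). Nppb holds besides an AGATAA at -84 (chr4:147985806-147985831) and a CATTCC read on the opposite strand at -105 (chr4:147985785-147985810), and these Nppb windows overlap each other.
Nppa GATA window: tttgccgaacTGATAActttaaaagg
Nppb GATA window, distal: ggaatgcagcTGATAAatcagagata
Nppb GATA window, proximal: gataaatcagAGATAAccccacccct
Nppb TEAD window: tcagccggcaGGAATGcagctgataa

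Both strands were searched. Such letters are common: TATAAA stands in 13.6% of the 32817 mouse promoters of that length, AGATAA in 11.2%, TGATAA in 9.06% and CATTCC in 14.7%. A match therefore describes the sequence and does not by itself show binding. The CArG box of serum response factor, searched only in its exact form and present in 1.63% of promoters, was found in none of the members' promoters. Inexact forms were not searched. The Nppa GATA window above ends in ctttaaaagg, which differs from the exact form by 1 letter. Of the other members, Prkg1 holds AGATAA at position -38 of 1 of its 2 promoters (chr19:31765056-31765081, minus strand). Pde2a, which did not pass in any comparison, holds AGATAA at -180 and TGATAA at -20, both read on the opposite strand.
Prkg1 GATA window: tctcaatgaaAGATAAtcacctattc

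Values below are intensity units, given array by array in the order of the replicate numbers. Pgf, the gene of placental growth factor, read 4136 and 916.6 in PlGF, 300.0, 229.0 and 210.8 in the PlGF/RGS4-labelled hearts, and 211.1, 348.9 and 387.1 in control. Rgs4 read 235.0 and 194.9 in PlGF, 233.7, 186.9 and 229.3 in the PlGF/RGS4-labelled hearts, and 209.5, 277.1 and 281.5 in control. The Pgf probe set thus read above every control in both PlGF hearts, and the Rgs4 probe set did not. Neither probe set read higher in the PlGF/RGS4-labelled hearts than in control. Whether these probe sets read the transgenes' own transcripts is not stated in the sources used here, and that group is named by its label throughout. PlGF replicate 1 stood apart from the rest, with a mean correlation of 0.974 to the arrays of the other groups, against 0.991 to 0.993 for every other array. Of 10 leukocyte markers 7 rose in PlGF against control, and their summed intensity was 14819.5 in PlGF replicate 1 and 7529 in PlGF replicate 2, 3244 to 4489 in the PlGF/RGS4-labelled hearts and 3612 to 3787 in control, with no marker at 0. The 10 ventricular cardiomyocyte markers summed to 113310 and 132782 in PlGF, to 132736 to 133759 in the PlGF/RGS4-labelled hearts, and to 134303 to 135208 in control, and 0 of them passed the test in any comparison (3 were lower at an unadjusted p under 0.05 in PlGF against control, 0 in the PlGF/RGS4-labelled hearts against control and 2 in PlGF against the PlGF/RGS4-labelled hearts). In ventricle RNA, fewer cells of a type and less RNA per cell cannot be told apart.

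Nppa read 4682 and 1424 in PlGF, 1661, 2224 and 1724 in the PlGF/RGS4-labelled hearts, and 3693, 4096 and 3185 in control. Its mean log2 level on these arrays was above that of 97.1% of all genes, and that of Nppb above 95.4%. The PlGF hearts held both the highest and the lowest value of the series, 3.29-fold apart, while every PlGF/RGS4-labelled heart lay below every control, as for 5.85% of all genes. The log2 fold change was -0.49 ± 0.43 (SE) for PlGF against control (95% interval -1.50 to 0.52, limma adjusted p = 0.523, 2 and 3 arrays). For the PlGF/RGS4-labelled hearts against control it was -0.97 ± 0.39, or 1.96-fold lower, with an unadjusted p of 0.0382 and a limma adjusted p of 0.963. The SE of that comparison also holds the spread between the 2 PlGF hearts, which are not part of it. The PlGF value rested on which PlGF heart was kept: with PlGF replicate 1 left out it was -1.35 (limma adjusted p = 0.0321), and with PlGF replicate 2 left out it was 0.36 (adjusted p = 0.223). In each of these a single PlGF array remains, which is taken to vary like the other groups.

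Nppb read 7711 and 2227 in PlGF, 994.2, 1049 and 1506 in the PlGF/RGS4-labelled hearts, and 2569, 1684 and 1516 in control. PlGF replicate 1 was far above all other arrays, PlGF replicate 2 lay inside the control range, and the PlGF/RGS4-labelled hearts lay below it, replicate 3 narrowly and the other 2 clearly. Against control, PlGF differed by 1.15 ± 0.49 on the log2 scale, a fold of 2.21 (95% interval of the log2 value -0.01 to 2.30, limma adjusted p = 0.223), and the PlGF/RGS4-labelled hearts by -0.69 ± 0.44 (adjusted p = 0.995). The widest contrast was PlGF against the PlGF/RGS4-labelled hearts, at 1.83 ± 0.49 or 3.56-fold, where the groups did not overlap (nor did those of 32.5% of all genes) and the limma adjusted p was 0.131 (unadjusted 0.00670). Without PlGF replicate 1 the difference from control was 0.25 and that from the PlGF/RGS4-labelled hearts was 0.94. Without PlGF replicate 2 they were 2.04 and 2.73. A single PlGF array remains in each of these fits, so no spread between PlGF hearts enters.

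**Figure D1:**
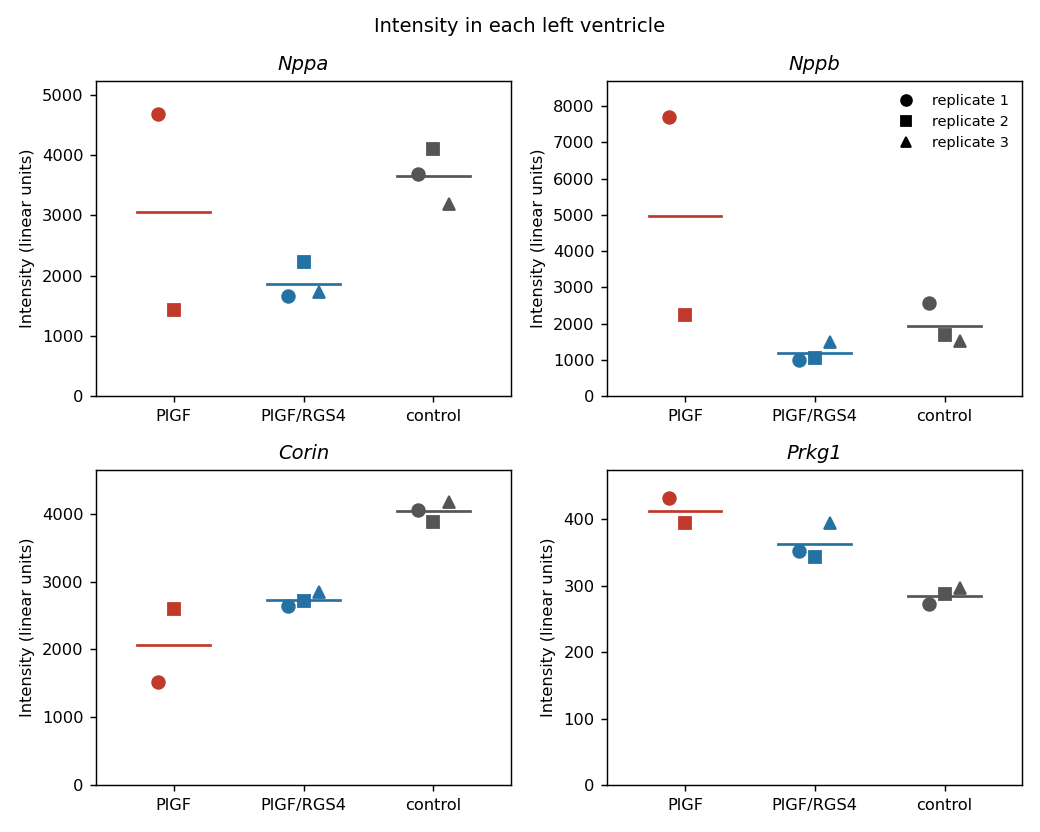
Intensity (linear units) of Nppa, Nppb, Corin and Prkg1 in each left ventricle; points are single arrays, marker shapes give the replicate number, and lines are group means over 2 PlGF, 3 PlGF/RGS4-labelled and 3 control hearts. The PlGF hearts are 3.29-fold apart for Nppa and 3.46-fold apart for Nppb, while for Corin and Prkg1 both PlGF hearts lie outside the control range.

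The split within the PlGF group was thus of the same size for both peptides, 3.29-fold for Nppa and 3.46-fold for Nppb, and in both PlGF replicate 1 was the high heart. The position of the low heart differed: PlGF replicate 2 was at 0.39 times the control mean for Nppa and at 1.19 times for Nppb. Over all genes, 99.6% had a smaller spread within groups than Nppa and 99.8% a smaller one than Nppb, the spread being the SD pooled over the groups on the log2 scale, whose median over all genes was 0.0921. The same figure was 93.4% for Npr3, 93.2% for Corin, 47.0% for Prkg1 and 23.0% for Npr2. For Nppa, Nppb and Corin the spread was widest between the PlGF hearts. In control the highest and lowest arrays were 1.29-fold apart for Nppa and 1.69-fold for Nppb. Among the PlGF/RGS4-labelled hearts they were 1.34-fold and 1.51-fold apart.

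Other genes of ventricular stress read high in the same heart, though not all: Myh7 read 743.1 there, inside the control range of 741.2 to 1037.5. Of 13 measured, 0 passed the adjusted test in any comparison (limma; by unadjusted p under 0.05, 4 were higher and 1 was lower in PlGF against control, 1 was lower in the PlGF/RGS4-labelled hearts against control, and 3 were higher in PlGF against the PlGF/RGS4-labelled hearts). Their median log2 difference from the control mean was 1.52 in PlGF replicate 1 and 0.07 in PlGF replicate 2. In the PlGF/RGS4-labelled hearts it was -0.07, 0.16 and -0.13. Tnc, which encodes the matrix protein tenascin C, read 766.8 and 74.2 in PlGF against 43.2, 39.2 and 46.6 in control. Lgals3 (galectin 3) read 580.0 and 259.0 in PlGF against 146.0, 169.6 and 138.9 in control, and Xirp2, a gene of the intercalated disc, 7337 and 4535 against 3782, 3741 and 3195. Fhl2, a LIM protein gene, went the other way, with 6117 and 7560 in PlGF against 8601, 8365 and 8307 in control. For these 4 genes, named for their small unadjusted p in this comparison, both PlGF hearts lay on the same side of the control range. For Nppa they lay on opposite sides of it, as for Ccn2 and Fhl1 of the stress list. Ccn2 read 5483.5 and 1023.6 in PlGF against 1442.3, 1370.1 and 1822.8 in control. For Nppb 1 PlGF heart lay inside the control range, as for Ankrd1, Postn and Rcan1 of that list. The adjusted p was 0.173, 0.116, 0.0890 and 0.0954 for Tnc, Lgals3, Xirp2 and Fhl2. Tnc read 56.2, 169.0 and 50.2 in the PlGF/RGS4-labelled hearts, and Lgals3 read 148.1, 301.1 and 139.4. Xirp2 read 4058, 4475 and 4210 there, and Fhl2 read 7663, 7646 and 7631. PlGF/RGS4 replicate 2 was thus above PlGF replicate 2 for Tnc and Lgals3.

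Since Nppa is foremost an atrial transcript, markers of atrial muscle were read beside it. Of 9 measured, 0 passed in any comparison (limma; 1 was lower at an unadjusted p under 0.05 in PlGF against control and 1 in PlGF against the PlGF/RGS4-labelled hearts). Myl7, the atrial myosin light chain gene, read 57.7 and 55.3 in PlGF, 61.1, 61.1 and 68.0 in the PlGF/RGS4-labelled hearts, and 71.2, 61.2 and 84.4 in control, all below the array medians of 111.1 to 115.2. Bmp10, made by right atrial muscle, read 18.8 to 22.7 over the 8 arrays. The summed intensity of the list was 1438.5 and 1745 in PlGF, 1853 to 1943 in the PlGF/RGS4-labelled hearts and 1662 to 1895 in control. Single genes of the list did not share 1 order. In PlGF replicate 1, the heart with the highest Nppa, Stard10 read 464.3, against 725.1 to 911.0 in control, whereas Myl4, an atrial myosin light chain gene, read 433.5, against 286.3 to 434.6 in control, and Dkk3 read 82.3, against 59.4 to 71.8 in control. These 3 were chosen after their values were seen, and the part of atrial tissue in the Nppa level was not tested.

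The genes around the peptide pair gave another comparison. In chromosomal order the measured neighbours are Miip, Mfn2, Plod1, 2510039O18Rik, Nppb, Nppa, Clcn6 and Agtrap, and of 10 measured genes around the pair 0 passed in any comparison (limma; at an unadjusted p under 0.05, 2 were higher and 1 lower in PlGF against control, 0 in the PlGF/RGS4-labelled hearts against control, and 1 higher and 1 lower in PlGF against the PlGF/RGS4-labelled hearts). Mfn2, a mitochondrial fusion gene, had a log2 fold change of -0.40 in PlGF against control (adjusted p = 0.0602), with 3868 and 4748 in PlGF against 5742, 5662 and 5561 in control. The chloride transporter gene Clcn6, next to Nppa, differed by 0.10 and Agtrap, which encodes a protein bound to the angiotensin receptor, by 0.24 in that comparison. The remaining 7 were Plod1 at 0.11, 2510039O18Rik at 0.05, Miip at 0.01, Mad2l2 at 0.16, Draxin at -0.03, Fbxo44 at -0.20 and Fbxo2 at -0.26. None of the neighbours had the wide split between the PlGF hearts that both peptide genes had.

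**Figure D2:**
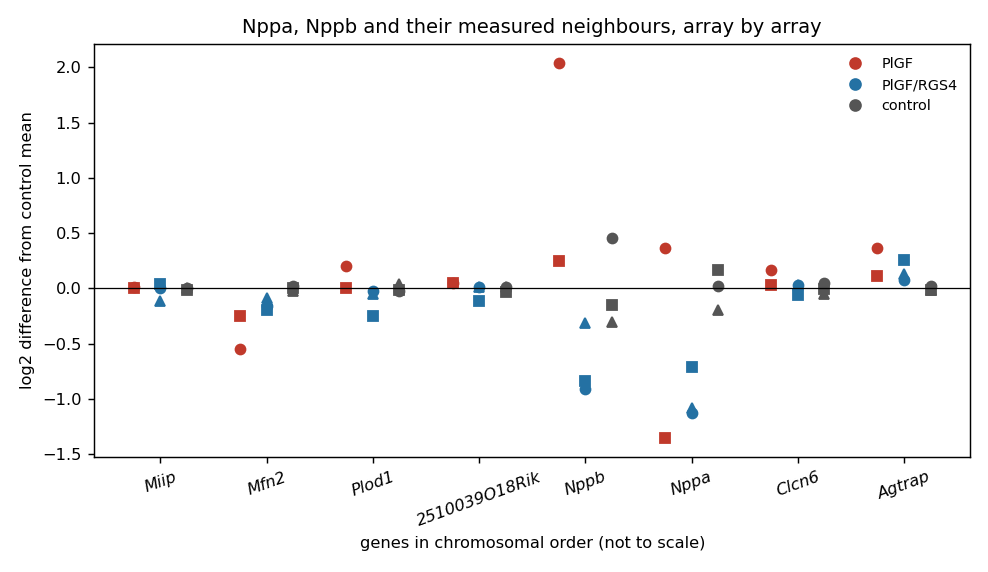
Log2 difference from the control mean (vertical axis) for Nppb, Nppa and their nearest measured neighbours in chromosomal order, not to scale; each point is an array, circles, squares and triangles being replicates 1, 2 and 3. Nppb reaches 2.04 and Nppa spans -1.35 to 0.36 in the PlGF hearts, while the points of the neighbours lie close to 0, Mfn2 in PlGF being the farthest.

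The genes whose log2 values ran most like those of Nppa over the 8 arrays, among 9966 genes above the median level, were Vopp1, H2bc4, P4hb, Ndrg4 and Gprc5b, with Pearson's r of 0.978, 0.972, 0.942, 0.926 and 0.925. For Nppb they were Mfng, Lrrk1, Mad2l1, G530011O06Rik and Eif4e3, with r of 0.972, 0.971, 0.969, 0.966 and 0.964. No gene was on both lists. PlGF replicate 1 was the highest array for all 5 Nppb-like genes and for 4 of the 5 Nppa-like genes, so the likeness rests in part on that array, and no p is given.

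Corin encodes the cell-surface protease of cardiomyocytes that cuts pro-ANP into ANP. It read 1525 and 2589.9 in PlGF, 2639.5, 2711 and 2844 in the PlGF/RGS4-labelled hearts, and 4059.5, 3873 and 4173 in control. The 3 groups were fully apart, with PlGF lowest and control highest. Corin fell in PlGF by 1.02 ± 0.19 on the log2 scale against control (95% interval -1.46 to -0.58, limma adjusted p = 0.0425, unadjusted 0.000847). In the PlGF/RGS4-labelled hearts it was -0.56 ± 0.17, or 1.48-fold lower than control, with an unadjusted p of 0.0117 and an adjusted p of 0.917, and PlGF stood -0.46 ± 0.19 from the PlGF/RGS4-labelled hearts (adjusted p = 0.245).

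The direction of the Corin difference did not rest on PlGF replicate 1: without it the log2 fold change was -0.64, and without PlGF replicate 2 it was -1.40. In each of these fits a single PlGF array remains, so no spread between PlGF hearts enters. The call was lost when any 1 of the 3 control arrays or of the 3 PlGF/RGS4-labelled hearts was left out, with values of -1.05 to -0.996 and adjusted p up to 0.151. Pcsk6, whose product activates corin, was named for that role and outside the naming rule. It read 735.2 and 1191 in PlGF, 1289, 958.3 and 1272 in the PlGF/RGS4-labelled hearts, and 1349, 1293 and 1319 in control, a log2 fold change of -0.50 ± 0.21 in PlGF against control that did not pass (adjusted p = 0.210). The drop in the summed cardiomyocyte markers of PlGF replicate 1 and the gain in leukocyte markers of both PlGF hearts stand beside the Corin difference, and their part in it was not tested. In PlGF replicate 2 and the PlGF/RGS4-labelled hearts, the summed cardiomyocyte markers were 132736 to 133759, against 134303 to 135208 in control. In all 4 of these arrays Corin was below every control, and so was Ryr2, a marker of that list. Ryr2 read 3573 and 6479 in PlGF, 6794, 7289 and 6632 in the PlGF/RGS4-labelled hearts, and 8408, 7892 and 7694 in control. It was the 1 marker of 10 without overlap between the PlGF/RGS4-labelled hearts and control, beside 12.8% of all genes.

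**Figure D3:**
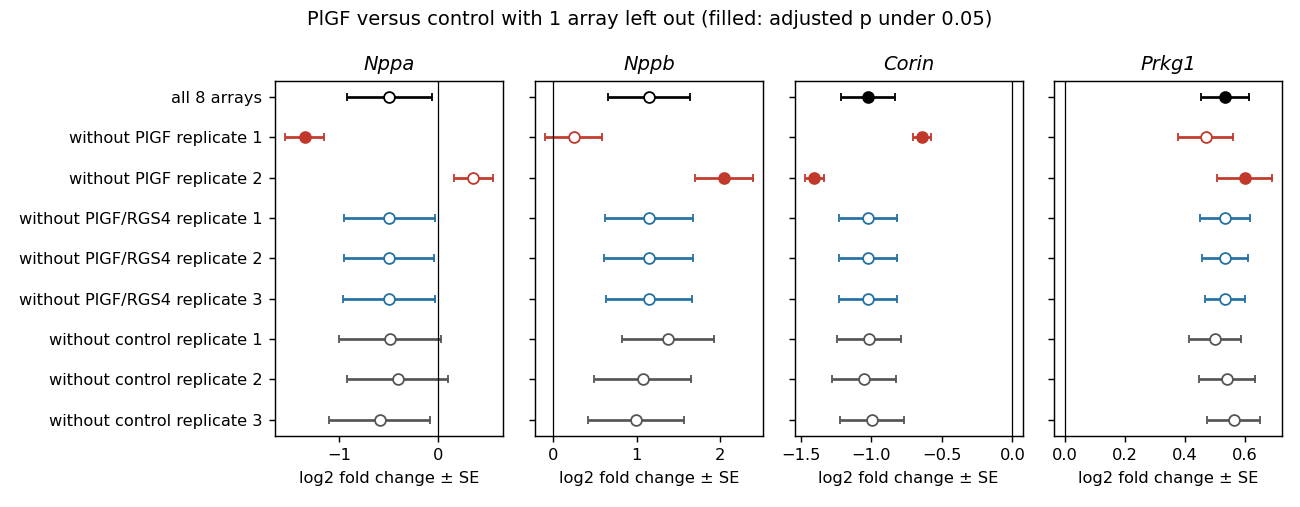
Log2 fold change of PlGF against control (horizontal axis, ± limma's SE) for Nppa, Nppb, Corin and Prkg1, with all 8 arrays and with each array left out in turn; filled points have an adjusted p under 0.05. Nppa moves between -1.35 and 0.36 with the PlGF heart left out, whereas Corin stays between -1.40 and -0.64 and Prkg1 between 0.47 and 0.60. With a PlGF array left out a single PlGF heart remains, and the SE holds no spread between PlGF hearts.

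The receptor genes varied little between the groups. Npr1, which encodes the ANP and BNP receptor with its own guanylyl cyclase, read 225.0 and 250.4 in PlGF, 212.5, 271.7 and 239.4 in the PlGF/RGS4-labelled hearts, and 250.4, 250.4 and 285.4 in control. The groups overlapped, and the log2 fold change against control was -0.14 ± 0.11 in PlGF (95% interval -0.40 to 0.12, adjusted p = 0.491) and -0.12 ± 0.10 in the PlGF/RGS4-labelled hearts (adjusted p = 0.998). Npr2, the receptor gene for C-type natriuretic peptide, read 897.8 and 999.8 in PlGF, 992.0, 1039.7 and 1029 in the PlGF/RGS4-labelled hearts, and 989.0, 943.8 and 945.6 in control. Its 3 PlGF/RGS4-labelled hearts lay just above the controls, at 0.09 ± 0.05 (adjusted p = 0.995), and the PlGF hearts fell on either side, at -0.02 ± 0.06 (95% interval -0.16 to 0.13, adjusted p = 0.888).

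Npr3 encodes the clearance receptor, which takes up natriuretic peptides without making cGMP. It read 502.9 and 428.3 in PlGF, 485.9, 430.8 and 368.6 in the PlGF/RGS4-labelled hearts, and 547.3, 363.0 and 519.1 in control, where the spread was wider than the differences between the groups. The log2 fold change was -0.02 ± 0.19 in PlGF (95% interval -0.46 to 0.43, adjusted p = 0.973) and -0.14 ± 0.17 in the PlGF/RGS4-labelled hearts (adjusted p = 0.998). The interval was widest for Npr3 and narrowest for Npr2 among the receptor genes.

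Nos3, the endothelial nitric oxide synthase gene, read 473.2 and 503.2 in PlGF, 428.7, 379.1 and 471.7 in the PlGF/RGS4-labelled hearts, and 450.9, 471.7 and 519.7 in control. Both PlGF hearts lay inside the control range and above the PlGF/RGS4-labelled hearts, the highest of which nearly reached the lower PlGF heart. The log2 fold change was 0.02 ± 0.10 for PlGF against control (95% interval -0.21 to 0.26, adjusted p = 0.912), -0.18 ± 0.09 for the PlGF/RGS4-labelled hearts against control (adjusted p = 0.995) and 0.20 ± 0.10 for PlGF against the PlGF/RGS4-labelled hearts (adjusted p = 0.314). Of 12 endothelial markers, Cdh5, the gene of the junction protein VE-cadherin, rose in PlGF against control by 0.30 (adjusted p = 0.0374), and 4 of the list were higher and 1 was lower by an unadjusted p of 0.05. The lower one, Vwf (von Willebrand factor), stood at -0.74, with 202.5 and 334.4 in PlGF against 463.2, 316.1 and 563.8 in control (adjusted p = 0.164). Besides Cdh5 the higher ones were Kdr at 0.57 (limma adjusted p = 0.0545), Emcn at 0.44 (adjusted p = 0.0795) and Egfl7 at 0.24 (adjusted p = 0.164). The list summed to 20610.1 and 19101 in PlGF, 16346 to 17201 in the PlGF/RGS4-labelled hearts and 16833 to 17510 in control, with no marker at 0. The part of cell number in the Nos3 level was not tested.

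Prkg1 encodes the cGMP-dependent kinase PKG-I, which acts in vascular smooth muscle and in cardiomyocytes. It read 431.8 and 394.6 in PlGF, 352.1, 343.0 and 394.1 in the PlGF/RGS4-labelled hearts, and 272.0, 287.1 and 296.6 in control. All 5 transgenic arrays lay above all 3 controls, and PlGF/RGS4 replicate 3 lay just under the lower PlGF heart. Prkg1 rose in PlGF against control by 0.53 ± 0.08 on the log2 scale (95% interval 0.35 to 0.72, limma adjusted p = 0.0247, unadjusted 0.000198). In the PlGF/RGS4-labelled hearts the difference from control was 0.35 ± 0.07, a fold of 1.27, with an unadjusted p of 0.00146 and an adjusted p of 0.764. PlGF and the PlGF/RGS4-labelled hearts differed by 0.19 ± 0.08 (adjusted p = 0.250).

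The value of Prkg1 hardly moved when an array was left out (0.47 to 0.60), but its adjusted p went above the threshold without PlGF replicate 1 (0.0818), without any 1 of the controls (0.0830 to 0.0989) and without any 1 of the PlGF/RGS4-labelled hearts (0.0524 to 0.0667). Among cells of the vessel wall, 0 of 7 smooth muscle markers passed in any comparison (limma; 0 were past an unadjusted p of 0.05 in PlGF against control, 1 in the PlGF/RGS4-labelled hearts against control and 1 in PlGF against the PlGF/RGS4-labelled hearts), and their sum was 16741 and 12289 in PlGF, 11621 to 12322 in the PlGF/RGS4-labelled hearts, and 13199.9 to 14424 in control. Of 7 pericyte markers, Pdgfrb, the receptor gene that marks these cells, rose by 0.39 in PlGF against control (adjusted p = 0.0459), and 2 of the list were higher and 1 was lower by an unadjusted p of 0.05. The lower one, the potassium channel subunit gene Abcc9, stood at -0.50, with 2339 and 3713 in PlGF against 4471, 4137 and 3952 in control (adjusted p = 0.162). The list summed to 9618 and 10924 in PlGF, 9149 to 10569 in the PlGF/RGS4-labelled hearts, and 9901 to 10815 in control. No marker of either list was at 0. Most of the smooth muscle sum was Des (8168 to 11268 over the 8 arrays), which cardiomyocytes express too, and the list's second gene by intensity, Acta2, read 4071 and 1895 in PlGF, 2248, 1574 and 1936 in the PlGF/RGS4-labelled hearts, and 3578, 2749 and 4122 in control. The part of these cells in the Prkg1 difference was not tested.

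The phosphodiesterase genes among the members showed no difference that passed. Pde5a, whose enzyme breaks down cGMP and is the target of sildenafil, read 130.7 in both PlGF arrays and in all 3 PlGF/RGS4-labelled hearts, and 127.6, 130.7 and 144.4 in control. The same value in 6 of 8 arrays is a property of the deposited table, in which 57.6% of all probe sets hold an identical value in at least 2 arrays, so its spread within the transgenic groups is 0 as deposited and its fold change of -0.04 ± 0.06 against control (adjusted p = 0.759 in PlGF) carries little information. Pde2a, whose enzyme is switched on by cGMP and also breaks down cAMP, read 1006 and 1264 in PlGF, 1071, 1128 and 1154 in the PlGF/RGS4-labelled hearts, and 1011, 1128 and 1147 in control. The PlGF hearts enclosed all the other arrays, and the log2 fold change was 0.04 ± 0.10 in PlGF (95% interval -0.20 to 0.29, adjusted p = 0.827) and 0.03 ± 0.09 in the PlGF/RGS4-labelled hearts (adjusted p = 0.998).

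**Figure D4:**
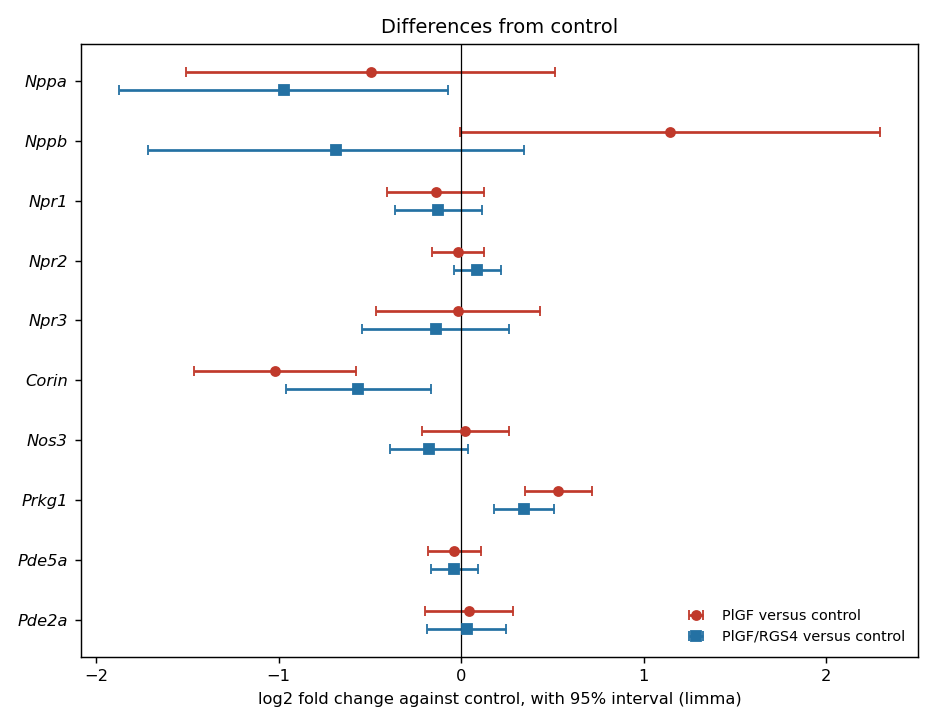
Log2 fold change against control with limma's 95% interval for the 10 genes, for PlGF (circles, 2 arrays) and the PlGF/RGS4-labelled hearts (squares, 3 arrays) against 3 controls. The intervals of Corin and Prkg1 lie off 0 in both groups, those of Nppa and Nppb are the widest, with that of Nppa in the PlGF/RGS4-labelled hearts below 0, and those of the receptor genes, Nos3, Pde5a and Pde2a include 0.

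Beyond the members, 36 further genes of cGMP production, breakdown and action were all measured. In PlGF against control 0 rose and 1 fell (limma; by unadjusted p under 0.05, 3 were higher and 6 were lower), and 0 passed in either direction for the PlGF/RGS4-labelled hearts against control (0 higher and 3 lower, unadjusted) or for PlGF against the PlGF/RGS4-labelled hearts (4 higher and 3 lower, unadjusted). The gene that fell was Pde1c, a phosphodiesterase gene of cardiomyocytes whose calmodulin-dependent enzyme breaks down cAMP and cGMP. Pde1c read 229.5 and 316.0 in PlGF, 369.3, 387.3 and 419.7 in the PlGF/RGS4-labelled hearts, and 483.4, 449.5 and 498.5 in control, and the groups were fully apart in the same order as for Corin. Its log2 fold change was -0.82 ± 0.13 in PlGF against control (adjusted p = 0.0296), -0.28 ± 0.12 in the PlGF/RGS4-labelled hearts against control (adjusted p = 0.971) and -0.54 ± 0.13 in PlGF against the PlGF/RGS4-labelled hearts (adjusted p = 0.106).

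Next by unadjusted p in PlGF against control came Spr, which encodes an enzyme that makes the nitric oxide synthase cofactor tetrahydrobiopterin, at -0.27 (adjusted p = 0.0661). Pde3a, a phosphodiesterase gene whose enzyme is inhibited by cGMP, read 586.1 and 907.6 in PlGF, 870.8, 962.6 and 987.3 in the PlGF/RGS4-labelled hearts, and 1084, 1081 and 1234 in control, a difference of -0.63 ± 0.17 in PlGF against control (adjusted p = 0.0916). Abcc4, which exports cyclic nucleotides, stood at 0.20 (adjusted p = 0.133) and Pde11a, a phosphodiesterase gene read below the array medians, at -0.29 (adjusted p = 0.157). The median over the 36 genes was -0.01 in PlGF against control, beside -0.03 over all genes.

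Counted over the members, PlGF against control had 1 gene higher (Prkg1), 1 lower (Corin) and 8 that did not pass, where 2.53% of all genes passed (505 of 19933), 1.79% higher (356) and 0.748% lower (149). The same 2 were the members past an unadjusted p of 0.05, beside 22.6% of all genes. The split over all genes was 376 higher and 317 lower when each array was centred on its median. Arrays did not overlap for 2 of the 10 members, Corin (lower, as 19.5% of all genes) and Prkg1 (higher, as 14.3%), against 33.9% of all genes in either direction. The exact permutation p was 0.1 for both, the smallest that 2 arrays against 3 can give. The members' median log2 fold change was -0.02, beside -0.03 over all genes.

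For the PlGF/RGS4-labelled hearts against control, 0 of the 10 members passed (limma, and under all 22 alternatives), where 3 genes or 0.0151% of all did. By unadjusted p under 0.05 there were 3, Prkg1 on the higher side and Nppa and Corin on the lower, where 5.02% of all genes were past that mark. The arrays did not overlap for 5 members, Npr2 and Prkg1 higher (6.96% of all genes) and Nppa, Nppb and Corin lower (5.85%), against 12.8% of all genes in either direction. The members' median was -0.13 beside 0.00 over all genes, and the exact permutation p was 0.1 for each of the 5, the smallest that 3 arrays against 3 can give. Nppa and Nppb stand next to each other in the genome and share these arrays, and no test was made of the list.

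For PlGF against the PlGF/RGS4-labelled hearts, 0 of the members passed (limma, and 0 by the methods' t-test and by the ANOVA spread), where 1.19% of all genes did, 1.1% higher and 0.0853% lower. With any 1 control or PlGF/RGS4-labelled array left out, 0 members passed as well. Leaving out a PlGF array leaves a single PlGF heart, so the spread between PlGF hearts no longer enters. By unadjusted p under 0.05 there were 3, Nppb and Prkg1 on the higher side and Corin on the lower, a mark that 19.5% of all genes were past, and Nppb, Nos3 and Prkg1 (higher, as 12.6% of all genes) and Corin (lower, as 19.9%) did not overlap between the groups, against 32.5% of all genes in either direction. This contrast is the test of whether the groups differ in their distance from control, because both distances are taken from the same 3 control arrays. Neither Corin nor Prkg1, the members that passed in PlGF, was shown after adjustment to differ from the PlGF/RGS4-labelled hearts, with 95% intervals of -0.90 to -0.01 for Corin and 0.00 to 0.37 for Prkg1.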

How the data were processed

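The deposited table holds 1 intensity per probe set and array on a linear scale, which the authors made with MAS5 (named in the methods and in the submitters' processing notes) and global scaling (named in the methods); the genome build is not given in the sources used here. All 8 columns were used. Of 28440 probe sets, 21780 carried 1 symbol, 1618 several (left out) and 5042 none here, and the brightest probe set of each gene gave 19933 genes. Equal values in 2 or more arrays occurred in 16383 probe sets, as a quantile step between arrays would give. MAS5 treats each array alone and the sources name no such step, so how the values were made is in part unknown.

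Log2 of the intensity plus 1 was fitted with limma 3.58.1 (lmFit, eBayes) in R 4.3.3, 1 mean per group over all 8 arrays. The spread was shared over the 3 groups, so the SE of a comparison also holds the spread of the group outside it. P-values were adjusted by Benjamini-Hochberg over 19933 genes, with a threshold of 0.05. A fold change on this scale understates the change of dim genes. An SE is limma's, and the number of arrays limits the precision. Single genes had a two-sided exact permutation test on the absolute difference of means, whose smallest p is 0.1 for 2 against 3 and for 3 against 3 arrays. The fit was tested on simulated data. The labels do not say which littermate each array came from, and with 1 array per heart the spread holds animals and measurement together.

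The members, gene lists, tests and alternatives were chosen with earlier results of these data known. All members were named. From other lists save the leukocyte markers, genes at an adjusted p under 0.05 and up to 4 more by unadjusted p in PlGF against control were named. Of the pericyte markers only the lower one was named besides Pdgfrb, and no fibroblast marker was named. All measured locus neighbours and the 5 genes most correlated with Nppa and with Nppb were named too. The leukocyte markers were given as a count and a sum, without names. The lists were the wider cGMP pathway, ventricular stress genes, locus neighbours, and markers of ventricular and atrial cardiomyocytes, endothelium, endocardium, smooth muscle, pericytes, fibroblasts and leukocytes. Probe sets were named from the platform annotation, and gene order and promoters came from RefSeq tables of GRCm38.p6, which need not be the build of the array; 9 of 10 members had a promoter there, the exception being Nos3.

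Alternatives were subtraction of each array's median, quantile normalization, genes above the median level only, all probe sets, the mean of a gene's probe sets, a trended robust prior, array weights, the arrays of the compared groups only, the methods' t-test, an unmoderated ANOVA spread, a block for the replicate number, log2 without and with 16 added, Xist as a covariate, and each array left out. Same-numbered arrays of different groups deviated together with correlations of -0.22 to 0.30, so the numbers were not taken as pairs.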

Additional observations from a re-analysis of the deposited data

Results flagged for a closer look

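Nppb stood on opposite sides of the control mean in the transgenic groups: both PlGF hearts were above it (7711 and 2227) and all 3 PlGF/RGS4-labelled hearts below it (994.2, 1049 and 1506), with a control mean of 1923 ± 566 (SD, n = 3). The difference between the transgenic groups was 1.83 on the log2 scale, and limma's test of it gave an adjusted p of 0.131.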

How the results depend on the processing

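The number of genes called moved with the model of the spread. In PlGF against control, 505 genes became 131 with array weights, 0 with the arrays of the compared groups only (3109 at an unadjusted p under 0.05), 4 by the methods' t-test, 11 with an unmoderated ANOVA spread and 27 with a replicate block. The 2 members called, Corin and Prkg1, became 0 under each of these 5 settings and 1 with 16 added before the log; the 1 wider cGMP gene became 2 with centred arrays and 0 under each of the 5 settings. In the PlGF/RGS4-labelled hearts against control, 3 genes became 0 with the compared groups only, the methods' t-test, the ANOVA spread, the block and the Xist covariate. In PlGF against the PlGF/RGS4-labelled hearts, 237 genes became 110 above the median level, 1 with the compared groups only, 5 by the t-test, 5 with the ANOVA spread, 26 with the block and 138 with 16 added. Leaving out 1 array gave 17 to 5921 genes, 0 to 3 members and 0 to 9 wider genes in PlGF against control, 0 to 1 genes and 0 members or wider genes in the PlGF/RGS4-labelled hearts against control, and 11 to 5591 genes, 0 to 3 members and 0 to 12 wider genes in PlGF against the PlGF/RGS4-labelled hearts, the highest in both comparisons of PlGF being without PlGF replicate 2; without PlGF replicate 1, 366 genes differed between PlGF and control.

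Corin passed in PlGF against control under 10 of 22 alternatives (-1.40 to -0.64) and Prkg1 under 10 of 22 (0.47 to 0.60), neither changing sign. With the block their adjusted p was 0.125 and 0.0751, and it changed no other call of a member. Signs turned only for genes close to 0 with all arrays, save for Nppa. In PlGF against control, Nos3 was -0.00315 after quantile normalization and -0.0284 with centred arrays, Pde2a was -0.00772 with centred arrays, and Npr3 was 0.0396 with array weights and 0.0118 with the Xist covariate. In PlGF against the PlGF/RGS4-labelled hearts, Pde2a was -0.0310 with centred arrays and Npr1 was 0.0255 with array weights and 0.0146 with the replicate block. With 1 array left out, the range in PlGF against control was -1.35 to 0.36 for Nppa, -0.0954 to 0.0597 for Npr2, -0.199 to 0.101 for Npr3, -0.0209 to 0.0813 for Nos3, -0.12 to 0.21 for Pde2a and -0.0714 to 0.0172 for Pde5a. For the PlGF/RGS4-labelled hearts against control it was -0.0714 to 0.0172 for Pde5a and -0.0261 to 0.0652 for Pde2a, and for PlGF against the PlGF/RGS4-labelled hearts it was -0.38 to 1.34 for Nppa, -0.103 to 0.0733 for Npr1 and -0.15 to 0.18 for Pde2a. Pde5a is below the median level and has no value in that setting. The causes were not tested, save that leaving out an array or a group also leaves fewer arrays to estimate the spread.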

Other observations

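Nppa was highest, within each group, in the array with low Xist. Xist, the transcript of the inactive X chromosome, read 26.9 and 2724 in PlGF, 2722, 36.1 and 2581 in the PlGF/RGS4-labelled hearts, and 2807, 50.8 and 2959 in control. The low-Xist arrays, with their Nppa, were PlGF replicate 1 (4682), PlGF/RGS4 replicate 2 (2224) and control replicate 2 (4096). The labels give no sex, and 1 array per group has low Xist. With the Xist level as a covariate, Nppa stood at -0.67 ± 0.30 in PlGF against control (limma adjusted p = 0.263) and at -1.002 ± 0.26 in the PlGF/RGS4-labelled hearts against control (unadjusted p = 0.00700, adjusted p = 0.748), while Corin was at -0.96 (adjusted p = 0.0408) and Prkg1 at 0.53 (adjusted p = 0.0366) in PlGF against control.

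Ddah1, which encodes an enzyme that clears an inhibitor of nitric oxide synthase, was chosen after its values were seen. It read 316.5 and 167.2 in PlGF, 189.9, 166.5 and 183.7 in the PlGF/RGS4-labelled hearts, and 328.2, 306.9 and 379.7 in control, so that, as for Nppa, PlGF replicate 1 and the controls were high and the other 4 arrays low. It was -0.90 ± 0.21 in the PlGF/RGS4-labelled hearts against control (limma unadjusted p = 0.00338, adjusted p = 0.808).

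Vcam1, a leukocyte adhesion gene listed among 8 endocardial markers, rose in PlGF against control by 1.09 (limma adjusted p = 0.0178) and against the PlGF/RGS4-labelled hearts by 1.04 (adjusted p = 0.0226), with 738.2 and 581.6 in PlGF, 318.1, 310.0 and 323.8 in the PlGF/RGS4-labelled hearts, and 357.2, 299.8 and 268.4 in control. By unadjusted p under 0.05 in PlGF against control this list had 1 gene higher and 3 lower, and the lower ones were Cytl1 at -1.22 (adjusted p = 0.0629), Foxc1 at -0.39 (adjusted p = 0.123) and Adgrg6 at -0.22 (adjusted p = 0.166). Of 8 fibroblast markers 0 passed in any comparison (limma; 2 were higher at an unadjusted p under 0.05 in PlGF against control, 0 in the PlGF/RGS4-labelled hearts against control and 1 in PlGF against the PlGF/RGS4-labelled hearts).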
